A study of Mus musculus with 6 samples.

Results

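The expression of 10 genes of the choroid plexus epithelium was examined in hippocampal RNA-Seq values from 6 single mice. The genes were chosen by symbol (*Ttr*, *Kl*, *Folr1*, *Clic6*, *Kcnj13*, *Aqp1*, *Enpp2*, *Otx2*, *Slc4a5*, and *Prlr*), with earlier results of these data known. All 10 were among the 14477 genes listed. The choroid plexus is a fringe of vascular stroma covered by a single sheet of epithelium that hangs into the brain ventricles and secretes most of the cerebrospinal fluid. Its epithelial cells make very large amounts of transthyretin, a carrier of thyroid hormone and retinol, and hold the channels and transporters that move ions and water from blood to fluid. The plexus of the lateral ventricle lies against the hippocampus along its fimbria and is not part of the hippocampus itself.

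The Phf21bΔ4/Δ4 mice carry a deletion in exon 4 of *Phf21b*, a gene for a reader of histone marks, made in the whole animal with CRISPR/Cas9 and kept on a C57BL/6J background. They were compared with Phf21b+/+ mice of the same breeding. The study used male and female littermates of 2 to 6 months, the mice had no treatment, and each of the 6 hippocampal libraries came from 1 mouse. The Phf21bΔ4/Δ4 mice are named KO2, KO3, and KO6 (replicates 2, 3, and 6) and the Phf21b+/+ mice WT5, WT7, and WT8 (replicates 5, 7, and 8), so each genotype has 3 mice. The sex of each mouse, the borders of the dissection, and any batch of library preparation are not given in the sources used here.

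Values are given as CPM, the reads of a gene scaled to the size of the normalized library, worked out from the deposited log2 CPM. The listed genes held 20495605 to 24881257 reads in each mouse. The detection floor was set at 3 reads, which came to between 0.127 and 0.143 CPM and covers counting error only. The targeted gene, *Phf21b*, had 2.15, 3.57, and 3.87 CPM in KO2, KO3, and KO6 and 6.50, 5.23, and 6.47 CPM in WT5, WT7, and WT8, which did not overlap, and its log2 difference was -0.96 (FDR 0.14, limma). Hippocampal neuron markers were present in every mouse, with a summed level of the 12 listed markers between 1256 CPM in WT7 and 1989 CPM in KO6. In bulk tissue, fewer cells of a type and less RNA per cell cannot be told apart, so the levels below are amounts of transcript in the sample and not in a cell.

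All 10 genes were highest in the same mouse, WT7, and second highest in the same mouse, WT8. Their summed level was 317, 251, and 382 CPM in KO2, KO3, and KO6 and 310, 23774, and 1811 CPM in WT5, WT7, and WT8. In WT7 the 10 genes came to 2.38% of the size of the normalized library, against 0.181% in WT8 and between 0.0251% and 0.0382% in the other mice. WT5, which is Phf21b+/+ like WT7 and WT8, lay inside the range of the Phf21bΔ4/Δ4 mice in this sum. The order of WT7 first and WT8 second was found in 12.0% of the 14477 genes. In WT7 each of the 10 genes was at least 4-fold above its own median over the 6 mice, which was true of 1.53% of all genes in that mouse.

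**Figure D1:**
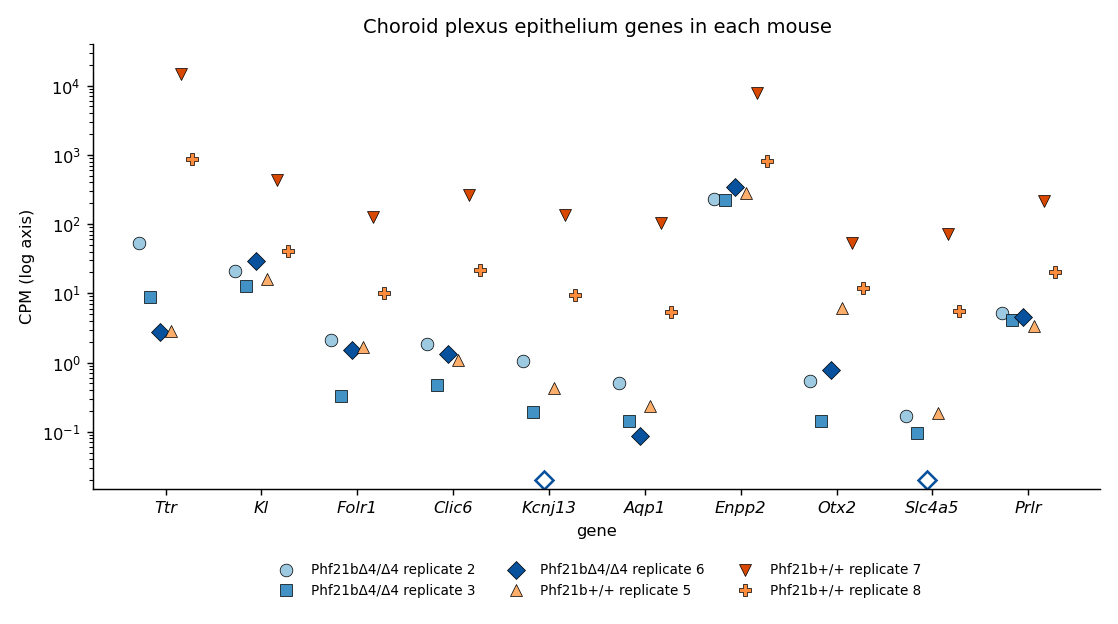
Level of each of the 10 genes in each of the 6 mice, in CPM on a log axis, with 1 symbol per mouse (blue for Phf21bΔ4/Δ4, orange for Phf21b+/+). Open symbols on the bottom edge are libraries with 0 reads of the gene. In every gene Phf21b+/+ replicate 7 (WT7) is highest and Phf21b+/+ replicate 8 (WT8) second, while Phf21b+/+ replicate 5 (WT5) lies inside the range of the Phf21bΔ4/Δ4 mice for 7 of the 10 genes.

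*Ttr* (ENSMUSG00000061808.4), the gene for transthyretin, is found on the plus strand of chromosome 18 (GRCm38, 20665280 to 20674321). Its level was 53.2, 8.95, and 2.74 CPM in KO2, KO3, and KO6 and 2.85, 14542, and 872 CPM in WT5, WT7, and WT8. The mouse with the most *Ttr* had 5307 times the level of the mouse with the least, the widest range of the 6 genes with more than 3 reads in every mouse. By CPM, *Ttr* ranked 1 among the listed genes of WT7, with 344581 reads, and ranked 86 in WT8, 4508 in KO2, 10151 in KO3, 12380 in KO6, and 12473 in WT5. WT5 and KO6 had almost the same low level (60 and 63 reads), although they differ in genotype.

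*Folr1* (ENSMUSG00000001827.12), on chromosome 7 from 101858331 to 101870788 on the minus strand, encodes the folate receptor alpha, through which the plexus passes folate into the cerebrospinal fluid. It had 2.11, 0.333, and 1.52 CPM in KO2, KO3, and KO6 and 1.66, 125, and 10.1 CPM in WT5, WT7, and WT8. WT7 and WT8 stood above the other mice, and WT5 lay between KO2 and KO6.

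Several of the genes encode proteins that move water and ions across the epithelium. *Aqp1* (ENSMUSG00000004655.5), on chromosome 6 from 55336432 to 55348555 on the plus strand, encodes the water channel aquaporin 1 of the ventricular face of the cell. Its level was 0.506, 0.143, and 0.0870 CPM in KO2, KO3, and KO6 and 0.237, 103, and 5.30 CPM in WT5, WT7, and WT8. KO3 and KO6 were at or below the 3-read level for *Aqp1*, and WT5 was between KO2 and KO3.

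*Kcnj13* (ENSMUSG00000079436.3), on chromosome 1 from 87386363 to 87394729 on the minus strand, encodes the inward rectifier potassium channel Kir7.1. It had 1.05 and 0.191 CPM in KO2 and KO3, 0 reads in KO6, and 0.427, 135, and 9.35 CPM in WT5, WT7, and WT8. Against the 3-read level of KO6, 0.130 CPM, WT7 was at least 1032-fold higher. *Slc4a5* (ENSMUSG00000068323.12), on chromosome 6 from 83219828 to 83304945 on the plus strand, encodes the sodium bicarbonate cotransporter NBCe2. It had 4, 2, and 0 reads in KO2, KO3, and KO6 and 4, 1727, and 125 reads in WT5, WT7, and WT8, and WT7 was at least 559-fold above the 3-read level of KO6. In *Slc4a5* the Phf21b+/+ mice all lay above the Phf21bΔ4/Δ4 mice in CPM, but the margin of WT5 over KO2 was 0.190 against 0.169 CPM at 4 reads each. *Clic6* (ENSMUSG00000022949.9), on chromosome 16 from 92485736 to 92541243 on the plus strand, encodes a protein of the chloride intracellular channel family. Its level was 1.86, 0.476, and 1.35 CPM in KO2, KO3, and KO6 and 1.09, 265, and 21.6 CPM in WT5, WT7, and WT8, with WT5 between KO3 and KO6.

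*Enpp2* (ENSMUSG00000022425.16), on chromosome 15 from 54838901 to 54952892 on the minus strand, encodes autotaxin, a secreted enzyme that makes lysophosphatidic acid and is also expressed by oligodendrocytes. It had 231, 224, and 341 CPM in KO2, KO3, and KO6 and 278, 7838, and 814 CPM in WT5, WT7, and WT8. *Enpp2* was well above the 3-read level in every mouse, and among KO2, KO3, KO6, and WT5 it varied less than *Ttr* did. In those mice it made up between 72.9% and 89.7% of the summed CPM of the 10 genes.

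*Kl* (ENSMUSG00000058488.7), on chromosome 5 from 150952607 to 150993817 on the plus strand, encodes Klotho, a membrane protein that serves as coreceptor for the hormone FGF23 and is abundant in kidney and choroid plexus. Its level was 21.2, 12.6, and 29.8 CPM in KO2, KO3, and KO6 and 16.1, 427, and 40.8 CPM in WT5, WT7, and WT8. WT8 was 1.37 times the level of KO6, the smallest gap between WT8 and a Phf21bΔ4/Δ4 mouse among the 10 genes. *Prlr* (ENSMUSG00000005268.20), on chromosome 15 from 10177238 to 10349180 on the plus strand, encodes the receptor of prolactin. It had 5.23, 4.14, and 4.61 CPM in KO2, KO3, and KO6 and 3.37, 213, and 20.0 CPM in WT5, WT7, and WT8. WT5 was the lowest of the 6 mice for *Prlr*, and the other 3 mice below WT8 lay close together.

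*Otx2* (ENSMUSG00000021848.16), on chromosome 14 from 48657677 to 48673819 on the minus strand, encodes a homeodomain transcription factor that the choroid plexus needs for its formation and upkeep. It had 0.548, 0.143, and 0.783 CPM in KO2, KO3, and KO6 and 6.07, 54.1, and 11.9 CPM in WT5, WT7, and WT8. The Phf21bΔ4/Δ4 values rest on 13, 3, and 18 reads, so KO3 was at the 3-read level. WT5 was 7.76 times the level of KO6, the highest of the Phf21bΔ4/Δ4 mice, whereas in the other 9 genes it was at most 1.13 times the highest of them.

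Per length of annotated exon, which allows levels of different genes to be set side by side, *Ttr* led in WT7 with 12261 CPM per kb and *Enpp2* came next with 1356. *Kcnj13*, *Clic6*, *Folr1*, *Kl*, and *Aqp1* followed with 106, 67.6, 54.5, 45.8, and 39.1 CPM per kb. *Prlr*, *Otx2*, and *Slc4a5* were the lowest and close together, with 13.9, 12.8, and 12.6 CPM per kb. *Ttr* was also first per length in WT8 and KO2, with 81.3% and 49.8% of the summed CPM per kb of the 10 genes. In KO3, KO6, and WT5, *Enpp2* was first, with 80.0%, 89.4%, and 86.9%. WT5 thus shared its leading gene with KO3 and KO6 and not with WT7 and WT8.

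Among the mice below WT7 and WT8 the order was less regular. Next after WT8 came KO2 for 6 of the 10 genes (*Ttr*, *Folr1*, *Clic6*, *Kcnj13*, *Aqp1*, and *Prlr*), WT5 for *Otx2* and *Slc4a5*, and KO6 for *Kl* and *Enpp2*. KO3 was lowest for 5 genes, KO6 for 4, and WT5 for *Prlr*. WT5 was within the range of the Phf21bΔ4/Δ4 mice for 7 of the 10 genes, and that was true of 49.0% of all genes. WT8 was above WT5 and each Phf21bΔ4/Δ4 mouse for 10 of 10, and that was true of 24.8% of all genes.

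**Figure D2:**
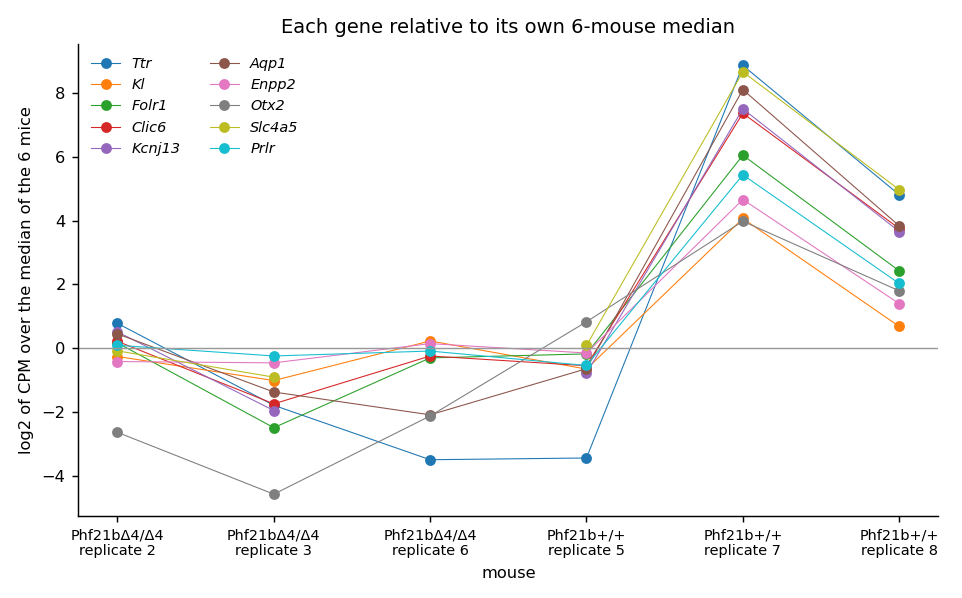
Level of each of the 10 genes in each mouse as log2 of CPM over the gene's own median of the 6 mice, with 1 colored line per gene; libraries with 0 reads (*Kcnj13* and *Slc4a5* in Phf21bΔ4/Δ4 replicate 6) are left out. The lines reach their top in Phf21b+/+ replicate 7 (WT7) and their second highest point in Phf21b+/+ replicate 8 (WT8), and *Otx2* alone lies far below its median in all 3 Phf21bΔ4/Δ4 mice.

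WT7 and WT8 share a genotype, so their ratio shows how far 2 mice of one genotype differed. The ratio of WT7 to WT8 was 16.7 for *Ttr* (95% counting interval 16.4 to 16.9) and 19.4 for *Aqp1* (16.1 to 23.5), the highest of the 10. It was 14.4 for *Kcnj13* (12.5 to 16.7), 12.4 for *Folr1* (10.8 to 14.2), and 12.3 for *Clic6* (11.2 to 13.5), and for *Slc4a5* the interval was 10.8 to 15.7. It was 10.6 for *Prlr* (9.65 to 11.7), 10.5 for *Kl* (9.77 to 11.2), 9.63 for *Enpp2* (9.49 to 9.78), and 4.54 for *Otx2* (3.98 to 5.20). The interval of *Otx2* lay below those of the other 9 genes, and the intervals of *Kcnj13*, *Slc4a5*, *Folr1*, and *Clic6* overlapped one another. These intervals cover the counting of reads in 2 libraries and no spread between mice. On the log2 scale the median ratio of the 10 genes was 3.62. It was 2.94 for 31 other choroid plexus epithelium genes, 0.40 for 16 ependymal genes, 0.31 for 11 fibroblast genes, 0.07 for 10 oligodendrocyte genes, and -0.28 for 12 hippocampal neuron genes. Outside the lists drawn in the plot of ratios, it was 0.77 for 10 thalamic genes and -1.59 for 5 red blood cell genes.

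**Figure D3:**
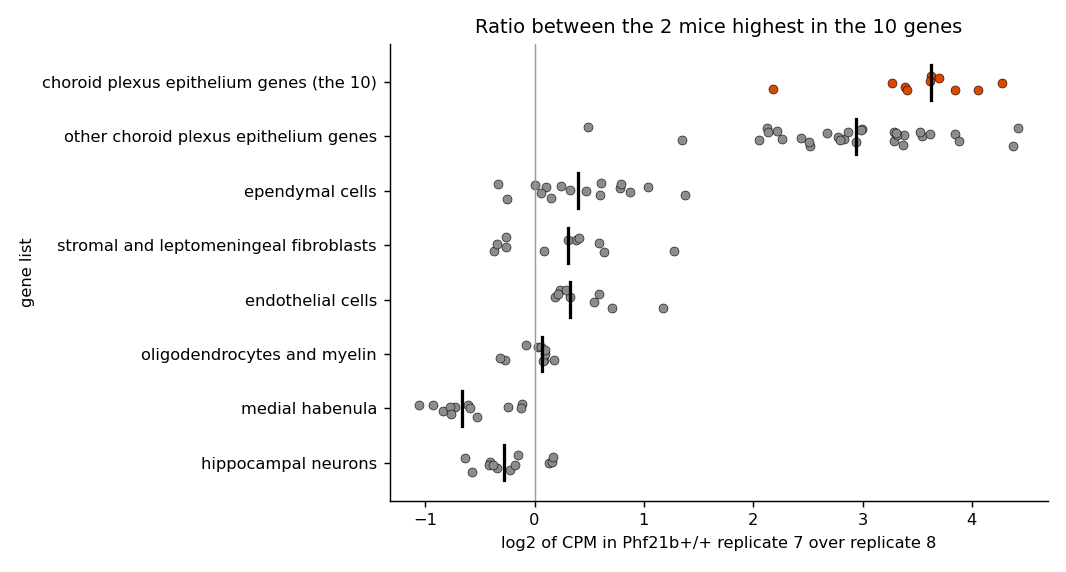
Log2 of the CPM in Phf21b+/+ replicate 7 (WT7) over that in Phf21b+/+ replicate 8 (WT8), with 1 point per gene and a bar at the median of each gene list. The 10 choroid plexus epithelium genes lie between 2.18 and 4.28, and the medians of the 6 lists drawn for other cells and regions lie between -0.67 and 0.40.

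Promoter sequences were available from RefSeq (build GRCm38.p6) for 6 of the 10 genes (*Kl*, *Kcnj13*, *Aqp1*, *Otx2*, *Slc4a5*, and *Prlr*), in 11 windows. Windows of *Ttr*, *Folr1*, *Clic6*, and *Enpp2* were not used here. They were searched on both strands for TAATCC, the core bound by homeodomain proteins of the class of OTX2, and for the TATA box TATAAA, since the genes moved together between mice. TAATCC was in 7.06% of all 32851 windows on either strand and TATAAA in 13.6%. TAATCC was found in 1 of the 11 windows, that of an *Otx2* start, on the strand opposite to the gene. TATAAA was found in 3 windows, those of *Kcnj13*, *Slc4a5*, and another *Otx2* start. The 100-base stretches that hold a match in *Kcnj13* (chr1:87394730-87394829, minus strand), *Slc4a5* (chr6:83237201-83237300, plus strand), and the *Otx2* window with TAATCC (chr14:48665260-48665359, minus strand) are shown 5′ to 3′ on the strand of the gene. Capitals mark the match, which reads as its reverse complement in *Slc4a5* and *Otx2*.
Kcnj13: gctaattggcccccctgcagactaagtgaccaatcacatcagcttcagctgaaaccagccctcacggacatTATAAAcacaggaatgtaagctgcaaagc
Slc4a5: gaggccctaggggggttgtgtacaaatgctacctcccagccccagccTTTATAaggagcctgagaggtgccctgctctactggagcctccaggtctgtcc
Otx2: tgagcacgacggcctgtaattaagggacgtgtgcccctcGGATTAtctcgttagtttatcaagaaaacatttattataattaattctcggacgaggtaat
The TATAAA of *Kcnj13* began 29 bases before the annotated start, on the strand of the gene. That of *Slc4a5* lay 127 bases before an annotated start inside the span of the gene given above (window chr6:83237125-83237424). A match describes the letters of the window and says nothing of binding, which was not measured.

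The comparison of Phf21bΔ4/Δ4 with Phf21b+/+ asks what the exon 4 deletion does to hippocampal transcripts. All 10 genes had a lower mean log2 CPM in Phf21bΔ4/Δ4 mice, but only *Otx2* passed the test (1 of 10 lower and 0 of 10 higher at FDR under 0.1 and a fold change above 1.3, limma with Benjamini-Hochberg adjustment over all 14477 genes). Over all genes 1.22% passed in either direction, 0.663% as lower and 0.553% as higher. At an unadjusted p under 0.05 there were 3 of the 10 (*Otx2*, *Slc4a5*, and *Kcnj13*, each lower) and 3421 of all genes (23.6%), and limma voom on the recovered reads called 0 of the 10, with 1 at an unadjusted p under 0.05. The median log2 difference was -4.43 over the 10 genes and -0.019 over all genes.

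The mean level of *Otx2* was 0.491 ± 0.324 CPM (SD, n = 3) in the Phf21bΔ4/Δ4 group and 24.0 ± 26.2 CPM (SD, n = 3) in the Phf21b+/+ group. Its log2 difference was -5.30 (standard error 0.93, 95% interval -7.52 to -3.08, FDR 0.089 by limma). The genotypes did not overlap (exact permutation test, 2-sided, p = 0.1, the smallest that 3 against 3 mice can give), as in 31.0% of all genes. Of the 10 genes, *Otx2* and *Slc4a5* had no overlap. Both reached 1 CPM only in Phf21b+/+ mice, as did *Aqp1*. They thus passed the authors' filter of 1 CPM in 2 or more samples through that group alone. Their direction is therefore not independent of the filter. The call of *Otx2* did not hold when 1 mouse was left out, except without KO6. The FDR was 0.295 without WT8, 0.267 without KO2, 0.242 without WT7, 0.176 without KO3, and 0.113 without WT5, while the log2 difference was -4.41 without WT7.

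The other 9 genes were not called, and the spread among Phf21b+/+ mice was wide in each of them. *Ttr* averaged 21.6 ± 27.5 CPM (SD, n = 3) in the Phf21bΔ4/Δ4 group and 5139 ± 8155 CPM (SD, n = 3) in the Phf21b+/+ group, and its log2 difference of -4.92 had a 95% interval from -11.95 to 2.12 (FDR 0.333, limma). The log2 difference was -6.66 for *Slc4a5* (interval -12.21 to -1.11, FDR 0.170, limma) and -6.39 for *Kcnj13* (interval -12.57 to -0.22, FDR 0.202, limma). Both hold libraries with 0 reads, and on the log2(CPM + 1) scale they were -2.94 and -3.23. Between these and zero lay *Aqp1* with -4.74, *Clic6* with -4.11, *Folr1* with -3.64, *Prlr* with -2.39, *Enpp2* with -2.22, and *Kl* with -1.72 (FDR between 0.213 and 0.366, limma), and the 95% interval of each of them included zero.

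Because WT7 and WT8 were far above the other mice, the difference was computed again without WT7 and without both, the latter chosen after the values were seen. Without WT7 the log2 difference was -2.19 for *Ttr*, -0.36 for *Kl*, -0.87 for *Enpp2*, and -0.82 for *Prlr*, and the median over the 10 genes was -2.19. Without both, it was 1.94 for *Ttr*, 0.31 for *Kl*, and 0.46 for *Prlr*, so these were then higher in Phf21bΔ4/Δ4 mice (FDR between 0.945 and 0.947, limma), and the median over the 10 genes was -0.22. In that comparison *Otx2* had the largest difference of the 10, -3.92 (FDR 0.945, limma), whereas with all 6 mice those of *Slc4a5* and *Kcnj13* were larger. There WT5 was the only Phf21b+/+ mouse and was assumed to vary like the others. No gene of the 14477 was called in it (453 at an unadjusted p under 0.05, limma).

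**Figure D4:**
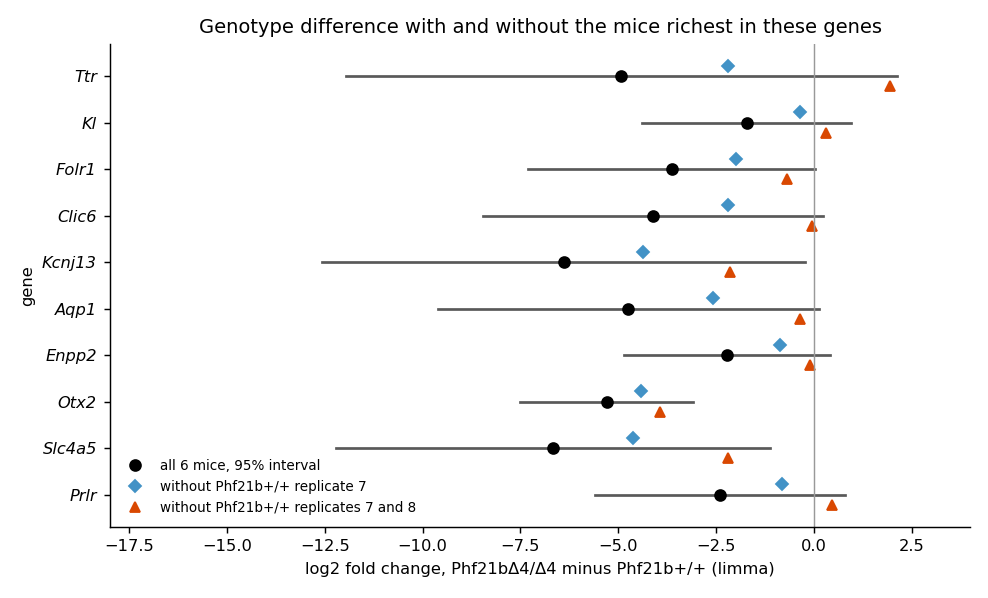
Log2 difference of each gene between genotypes, Phf21bΔ4/Δ4 minus Phf21b+/+, by limma; black points are all 6 mice with the 95% interval as a line, blue diamonds leave out Phf21b+/+ replicate 7 (WT7), and red triangles leave out Phf21b+/+ replicates 7 and 8 (WT7 and WT8). The points move toward zero, *Ttr*, *Kl*, and *Prlr* cross it, and *Otx2* moves from -5.30 to -3.92.

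All 31 other genes taken as known from choroid plexus epithelium were listed (under 32 symbols, 1 of them an older name of *Ecrg4*), and each was highest in WT7, 29 of them with WT8 second. Their summed level was 360, 299, and 286 CPM in KO2, KO3, and KO6 and 360, 3277, and 613 CPM in WT5, WT7, and WT8. *Kcne2*, a potassium channel subunit, had 0.253, 0, and 0.130 CPM in KO2, KO3, and KO6 and 0, 102, and 8.76 CPM in WT5, WT7, and WT8. *Trpm3*, a cation channel, ranged less widely, with 171, 127, and 143 CPM in KO2, KO3, and KO6 and 180, 557, and 219 CPM in WT5, WT7, and WT8. All 31 had a negative log2 difference with a median of -2.78, and 1 was called, the protease inhibitor gene *Wfikkn2*. *Wfikkn2* had 0.843, 0.191, and 0.435 CPM in KO2, KO3, and KO6 and 6.50, 21.4, and 15.2 CPM in WT5, WT7, and WT8 (log2 difference -4.94, standard error 0.64, FDR 0.058, limma). Like *Otx2*, it reached 1 CPM only in Phf21b+/+ mice and passed the filter through them. Without WT7 or without WT8, 0 of the 31 were called by limma, and voom called 0 with all mice. In 10 of the 31, *Wfikkn2* and *Slc13a4* among them, the genotypes did not overlap, against 31.0% of all genes. WT5 was 7.71 times the highest Phf21bΔ4/Δ4 mouse in *Wfikkn2* and 3.12 times in *Slc13a4*, and at most 1.66 times in the others.

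Marker lists of other cells and regions were read in the same mice. The ependymal genes, of the ciliated lining of the ventricles, summed to 136, 80.3, and 167 CPM in KO2, KO3, and KO6 and 160, 435, and 371 CPM in WT5, WT7, and WT8. WT7 and WT8 were thus high in ependymal genes too, but with WT7 only slightly above WT8 in the sum. The order of WT7 first and WT8 second held in 14 of the 16, against 12.0% of all genes. In WT7, 6 of the 16 were at least 4-fold above their own median over the 6 mice, against 1.53% of all genes. That order was therefore not particular to the choroid plexus genes. Of the 16 ependymal genes, 0 were called by limma or by voom, 13 had an unadjusted p under 0.05 by limma, and the median log2 difference was -1.57. The cilia regulator *Foxj1* had 12.1, 6.29, and 17.1 CPM in KO2, KO3, and KO6 and 15.2, 62.3, and 36.1 CPM in WT5, WT7, and WT8. Genes of stromal and leptomeningeal fibroblasts summed to 206, 138, and 42.6 CPM in KO2, KO3, and KO6 and 91.5, 103, and 80.0 CPM in WT5, WT7, and WT8, so the sum did not follow the order of the choroid plexus genes. *Dcn*, which encodes the matrix proteoglycan decorin, alone gave 152 and 101 CPM of the sums of KO2 and KO3. Of the 11 fibroblast genes listed, 10 had a negative log2 difference, the median was -0.82, and 6 had an unadjusted p under 0.05. *Fmod* was the 1 called, as lower (-1.43, FDR 0.096, limma), and the list had 0 calls by voom, with robust empirical Bayes, and in each leave-one-out fit except that without KO6. Red blood cell genes were highest in WT8, with 110 CPM, and between 33.0 and 71.4 CPM in the other mice. Endothelial genes (9 listed), oligodendrocyte genes (10 listed), red blood cell genes (5 listed), and border macrophage genes (2 of 8 listed) had 0 calls by limma and by voom, with 3, 0, 0, and 1 at an unadjusted p under 0.05 by limma. Of the 12 hippocampal neuron genes, *Fibcd1* and *Mpped1* were called higher in Phf21bΔ4/Δ4 mice, with a median over the list of 0.05, and 0 were called without KO3, WT5, WT7, or WT8.

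Markers of the medial habenula, a nucleus that lies below the dorsal hippocampus, separated the genotypes in a pattern that included WT5. Their summed level was 79.8, 94.3, and 50.9 CPM in KO2, KO3, and KO6 and 346, 304, and 452 CPM in WT5, WT7, and WT8. Of the 12, 11 were called lower in Phf21bΔ4/Δ4 mice (median log2 difference -5.29, limma), against 0.663% of all genes. The habenular and thalamic lists were written with earlier results of these data known, so their counts of calls are not independent of them. *Chat* and *Irx2*, a cholinergic enzyme and a habenular transcription factor, had 1 read in KO2 and 0 in KO3 and KO6. Both thus passed the filter on CPM only through Phf21b+/+ mice. Thalamic markers summed to 108, 213, and 201 CPM in KO2, KO3, and KO6 and 582, 574, and 370 CPM in WT5, WT7, and WT8, with *Tcf7l2* and *Zic1* of 10 called lower. When any 1 of the Phf21b+/+ mice was left out, 5 of the 12 habenular genes were called, and 0 or 1 of the thalamic genes. *Otx2*, *Slc4a5*, and 10 of the 31 other choroid plexus genes had WT5 above each Phf21bΔ4/Δ4 mouse. The genotypes did not overlap in these genes, as in 31.0% of all genes (either direction). In *Slc4a5* WT5 had 0.190 CPM against 0.169 CPM in KO2, at 4 reads each. The part of the habenula and thalamus in the differences of the choroid plexus genes was not tested.

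**Figure D5:**
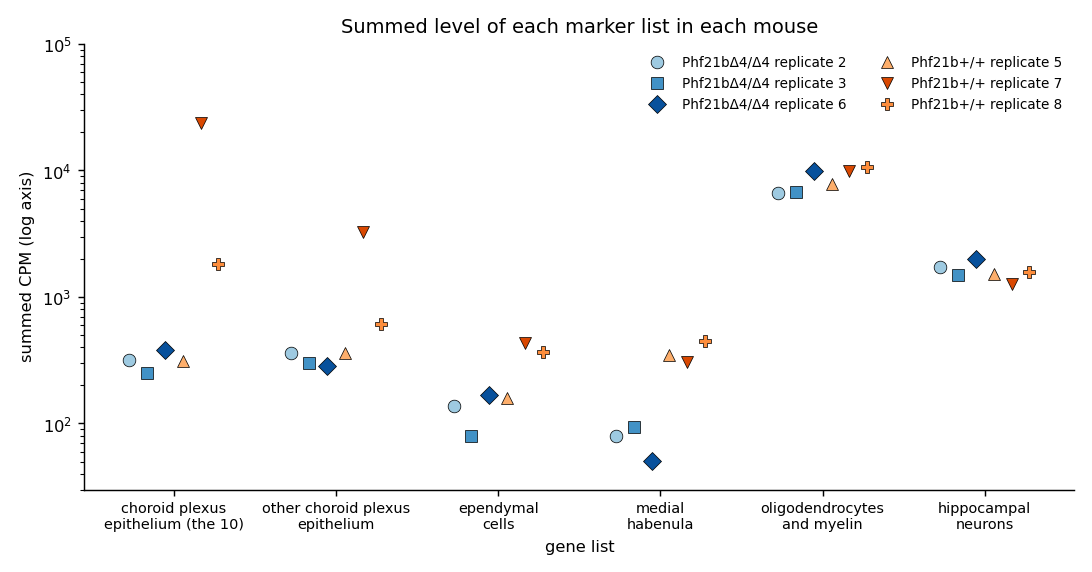
Summed CPM of 6 marker lists in each mouse on a log axis, with 1 symbol per mouse (blue for Phf21bΔ4/Δ4, orange for Phf21b+/+). In the 10 choroid plexus genes Phf21b+/+ replicate 7 (WT7) reaches 23774 CPM and Phf21b+/+ replicate 5 (WT5) stays at 310, whereas in medial habenula genes the 3 Phf21b+/+ mice lie together between 304 and 452 CPM.

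Genes of the pathways that these 10 genes serve were read from further lists. Of 24 other water and ion transport genes, 1 was called, *Aqp4*, the water channel of astrocyte endfeet and ependyma, with 254, 210, and 255 CPM in KO2, KO3, and KO6 and 391, 393, and 362 CPM in WT5, WT7, and WT8 (log2 difference -0.68, FDR 0.067, limma). *Aqp4* did not show the peak in WT7, and the list had 0 calls in each leave-one-out fit except that without KO6. The median log2 difference of the list was 0.02, and 8 of the 24 had an unadjusted p under 0.05 by limma. Other genes of the list did follow WT7. Of the 24, 13 were highest in WT7, and 7 had WT7 first and WT8 second. In WT7, 3 were at least 4-fold above their own median over the 6 mice. Over all genes these shares were 23.5%, 12.0%, and 1.53%.

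Of 17 retinol and thyroid hormone genes, 0 were called by limma (6 at an unadjusted p under 0.05) and 1 by voom, with a median log2 difference of -0.17. *Thra*, a thyroid hormone receptor, had 862, 781, and 684 CPM in KO2, KO3, and KO6 and 666, 528, and 667 CPM in WT5, WT7, and WT8 (FDR 0.217, limma). None of the 6 lysophosphatidic acid receptor and phosphatase genes, the 8 folate genes, and the 8 genes of prolactin and Klotho signaling was called by limma or by voom, with 2, 1, and 2 at an unadjusted p under 0.05 by limma. *Lpar1*, a receptor for the product of autotaxin, had 61.4, 64.7, and 84.1 CPM in KO2, KO3, and KO6 and 74.3, 95.8, and 104 CPM in WT5, WT7, and WT8. *Fgfr2*, a receptor for fibroblast growth factors, had 64.2, 65.1, and 86.3 CPM in KO2, KO3, and KO6 and 88.7, 137, and 95.5 CPM in WT5, WT7, and WT8 (FDR 0.169, limma).

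The genes whose pattern over the 6 mice was most like that of the 10 were found among 12959 other genes whose log2 CPM averaged 1 or more. Likeness was the root mean square difference of log2 CPM over the 6 mice, after each gene was centered on its own mean, so that 0 is an identical pattern. Most like the median pattern of the 10 were the coagulation factor gene *F5* and the retinal transporter gene *Abca4* (0.49 each), the tight junction gene *Cldn2* (0.61), *Ecrg4* (0.87), *Col8a2* (0.96), *Calml4* (0.97), *Slc13a4* (1.02), and *Drc7* (1.08). *F5* had 2.61, 0.762, and 1.04 CPM in KO2, KO3, and KO6 and 0.996, 128, and 12.3 CPM in WT5, WT7, and WT8. Among the 10 themselves the value ran from 0.50 for *Clic6* to 2.62 for *Kcnj13*. Of the 8, only *Drc7*, a gene of the ciliary dynein regulator, was not on the list of choroid plexus genes. That list was written with earlier results of these data known, so its share among the 8 is not independent of them. Most like *Ttr* were *F5* (2.08), *Abca4* (2.41), *Col8a1* (2.60), *Cldn2* (2.62), *Ecrg4* (2.82), *Calml4* (2.98), *Col8a2* (2.98), and *Drc7* (3.01).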

How the data were processed

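Hippocampal total RNA of 3 Phf21bΔ4/Δ4 and 3 Phf21b+/+ mice was sequenced after removal of ribosomal RNA, and mice were assigned to genotypes by their sample labels. The authors' processing used Trimmomatic 0.39 for trimming, STAR 2.7.3a for mapping to GRCm38, and featureCounts of Subread 1.6.4 for reads per GENCODE gene. The authors kept genes that reached 1 CPM in 2 or more samples and took effective library sizes from edgeR. The deposited table holds log2 CPM for 14477 genes, and all 6 columns were matched to a sample. The prior count and the strandedness of counting are not given in the sources used here. Values that overlap antisense genes could therefore hold reads of both. The lowest value, -7.81, stood for 0 reads. In the lower range of read counts 100% of values gave whole reads within 0.1. Higher counts, such as those of *Ttr* in WT7, were left out of this check. Reads and CPM were recovered from the log2 values on this basis.

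The deposited log2 values entered limma 3.58.1 (R 4.3.3; lmFit, then eBayes with a mean-dependent prior variance) without covariates, and p-values were adjusted over the 14477 genes by the Benjamini-Hochberg method. Calls needed an FDR under 0.1 together with a change above 1.3-fold, as in the study's methods, whose own test needs counts. The test was first tested on simulated data. In these all genes had the same dispersion and no library stood apart as WT7 does, so the check does not cover such a spread. Single genes were also tested by exact permutation of the 6 mice. Counting intervals of ratios are 95% intervals on the recovered reads. Gene positions and exon lengths came from a GENCODE annotation of GRCm38, in which 14277 symbols (98.6%) were matched once. Other steps ran in Python 3.11.15 (pandas 2.3.3; NumPy 2.4.6), with exact tests from SciPy 1.17.1 and plots from matplotlib 3.10.9.

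The 10 genes, the marker and pathway lists, and the tests were chosen with earlier results of these data known, and the lists were written from general knowledge. Named in the text are the 10 genes, *Phf21b*, genes of the lists that were called or were among the 3 of their list with the highest mean CPM, and the 8 genes most like *Ttr* and most like the median of the 10. *Kcne2* was chosen after its values were seen. A gene of these lists is not reported here. Alternative settings were voom on the recovered reads, arrayWeights, robust empirical Bayes, an equal prior variance, quantile normalization, median centering, pseudocounts of 1 and 0.1, a filter on low mean expression, a stricter FDR of 0.05, no fold threshold, and leave-one-out fits.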

Additional observations from a re-analysis of the deposited data

How the results depend on the processing

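The 176 calls over all genes became 75 with an equal prior variance, 101 with only genes of a mean log2 CPM of at least 1, 25 at an FDR under 0.05, 3549 with arrayWeights, and 0 (453 at an unadjusted p under 0.05, limma) without both WT7 and WT8, an alternative chosen after the values were seen. With each mouse left out in turn they ranged from 9 (without WT8) to 2830 (without KO6). Centering on the median gave 94 lower and 104 higher calls, against 96 and 80. Of the 10 choroid plexus genes, 3 were called with arrayWeights (*Clic6*, *Otx2*, and *Slc4a5*), a setting that called 24.5% of all genes. By limma, 0 were called with an equal prior variance (2 at an unadjusted p under 0.05), with genes of a mean log2 CPM of at least 1 (1 of 7 tested), with log2(CPM + 1) (1), with voom (1), at an FDR under 0.05 (3), and without WT7 and WT8 (1). Leaving out 1 mouse gave between 0 and 1. Over 16 alternatives *Otx2* stayed lower in Phf21bΔ4/Δ4 mice, from -5.99 to -3.55, with an FDR from 0.0114 to 0.945, and its call was lost in 10. Of the 10 genes, only *Ttr* (1.94), *Kl* (0.31), and *Prlr* (0.46) changed sign under these alternatives, each without both WT7 and WT8. Of 157 recomputed differences of the 10 genes, 142 kept their direction and their side of the threshold. The median over the 10 genes was -2.93 on the log2(CPM + 1) scale and -2.19 without WT7. No paired analysis was possible because the genotypes share no replicate numbers. With an equal prior variance, 0 of the water and ion transport, fibroblast, and hippocampal neuron genes were called. Fibroblast genes also had 0 calls with the mean-expression filter, quantile normalization, and median centering. The causes of these shifts were not tested. Low levels rest on few reads, so below about 3 reads no difference was detectable at this depth.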
